A study of Mus musculus with 2 samples.

Results

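The genes described here encode the killing program of lymphocytes, and they were fixed as a list of 10: *Gzma*, *Gzmb*, *Gzmk*, *Gzmm*, *Prf1*, *Nkg7*, *Ifng*, *Fasl*, *Eomes* and *Tbx21*, out of 32285 genes in the count matrix. All 10 were found by symbol, each as 1 protein-coding gene. Their level was followed in natural killer (NK), T and other leukocytes of brown adipose tissue (BAT). CD45+ DAPI- cells were sorted from BAT of male C57Bl/6 mice of the genotype AdipoQ-CreERT2 ATGLfl/fl, and made into 1 droplet library per condition. Control mice received vehicle. AdipoKO mice (AdipoΔ/Δ in the nomenclature of the study) received tamoxifen, which switches on a Cre recombinase driven by the promoter of the adipocyte gene *Adipoq* and deletes *Pnpla2*, the gene of the lipase ATGL, in adipocytes. Both groups thus carried the same alleles and differed in tamoxifen as well as in the deletion. The labels give an age of 16 weeks for both groups, whereas the study's own legends give younger mice, and the number of mice per library is not stated.

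Granzymes are serine proteases that are stored in cytotoxic granules, and perforin, the product of *Prf1*, lets them enter a target cell. Fas ligand, encoded by *Fasl*, kills through a receptor on the target, and interferon-gamma, encoded by *Ifng*, is a cytokine that acts on macrophages and many other cells. *Eomes* and *Tbx21* encode T-box transcription factors that direct this program in NK cells, group 1 innate lymphoid cells (ILC1) and CD8 T cells. In resting NK cells the program is held ready, whereas a naive T cell acquires it after it has met antigen.

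The members lie at separate places in the mouse genome (GRCm38, GENCODE M21 gene spans). *Gzma* (ENSMUSG00000023132) is at chr13:113093825-113100981 and *Gzmk* (ENSMUSG00000042385) at chr13:113171608-113225908, both on the minus strand. *Gzmb* (ENSMUSG00000015437) is at chr14:56258838-56262260 on the minus strand, and *Gzmm* (ENSMUSG00000054206) at chr10:79689020-79695261 on the plus strand. *Prf1* (ENSMUSG00000037202) is at chr10:61297833-61304680, *Nkg7* (ENSMUSG00000004612) at chr7:43437073-43438249 and *Ifng* (ENSMUSG00000055170) at chr10:118441046-118445892, all on the plus strand. *Fasl* (ENSMUSG00000000817) is at chr1:161780689-161788495 on the minus strand. *Eomes* (ENSMUSG00000032446) is at chr9:118478212-118486132 on the plus strand and *Tbx21* (ENSMUSG00000001444) at chr11:97098071-97115331 on the minus strand.

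The promoters are shown because *Eomes* and *Tbx21*, the T-box genes among the members, were measured beside the granule genes. RefSeq windows (GRCm38.p6) of 250 bases before to 50 bases after the start site were searched on both strands, and all 10 members matched, *Gzmm* with a pair of start sites. RefSeq start sites can lie away from the ends of the GENCODE spans, as for *Gzmk*. The T-box letters GGTGTGA or TCACACC stood in the windows of *Gzmk*, *Gzmm* and *Nkg7*, and in 3.98% of all 32851 windows. The Runx letters ACCACA or TGTGGT, whose matches in the members did not overlap a T-box match, stood in the windows of *Gzma*, *Gzmb*, *Gzmm*, *Prf1* and *Nkg7*, and in 16.8% of all windows. A match is a stretch of letters, not a measured binding site, and factor binding was not part of these data. The first lines show the stretches of 30 bases around the T-box letters, and the further lines the bases before the start site of *Gzma*, *Gzmb* and *Prf1*, which encode the granzymes and perforin that act together in killing. All are written 5′ to 3′ on the strand of the gene, and capitals mark the T-box letters in the first group and the Runx letters in the second.
Gzmk, T-box letters, chr13:113181022-113181051, minus strand: ttgaaaccttgGGTGTGAaaaatctaacgt
Gzmm, T-box letters, chr10:79693626-79693655, plus strand: ggcagctcttgGGTGTGAccgcatatgcag
Nkg7, T-box letters, chr7:43437114-43437143, plus strand: ggggtagggaaGGTGTGAgaagaatcagat
Gzma, Runx letters, chr13:113100982-113101231, minus strand: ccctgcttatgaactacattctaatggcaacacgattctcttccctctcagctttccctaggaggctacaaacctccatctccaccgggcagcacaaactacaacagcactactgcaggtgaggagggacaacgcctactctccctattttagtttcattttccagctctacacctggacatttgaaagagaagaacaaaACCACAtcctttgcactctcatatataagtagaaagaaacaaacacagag
Gzmb, Runx letters, chr14:56262335-56262584, minus strand: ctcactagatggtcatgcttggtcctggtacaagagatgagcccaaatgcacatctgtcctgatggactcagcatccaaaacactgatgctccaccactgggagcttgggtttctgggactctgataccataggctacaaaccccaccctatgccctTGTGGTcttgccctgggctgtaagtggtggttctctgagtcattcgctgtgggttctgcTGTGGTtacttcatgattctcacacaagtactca
Prf1, Runx letters, chr10:61297586-61297832, plus strand: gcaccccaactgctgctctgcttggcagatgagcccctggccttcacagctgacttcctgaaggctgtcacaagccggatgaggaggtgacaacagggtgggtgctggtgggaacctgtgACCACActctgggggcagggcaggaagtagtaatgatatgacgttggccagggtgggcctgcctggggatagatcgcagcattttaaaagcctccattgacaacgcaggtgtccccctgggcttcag

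The control library held 2597 barcodes and 11327187 unique molecular identifiers (UMIs, 1 per counted transcript molecule), and the AdipoKO library 2381 barcodes and 12028844 UMIs. After filtering, 2279 and 2016 cells remained, with a median of 3678 and 3942 UMIs per cell, and 4 barcodes occurred in both libraries. Cells were clustered without the members, and no member served as a marker, so that classes were named from other genes. The NK-like class held 204 control and 172 AdipoKO cells (median 6470.5 and 6558 UMIs), the ILC1-like class 39 and 37, the T cell-like class 391 and 275 (median 3472 and 3533 UMIs), and a cluster of dividing cells 16 and 34. B cell-like cells (262 and 92, median 1803 and 2101 UMIs) lack the program and served as the reference for free RNA. A level is given in CPM, the UMIs of a gene summed over a class and scaled to the total UMIs of that class. Ranges in parentheses are exact 95% intervals, and they cover counting error only. With 1 library per condition no difference was tested, and no value has an error between mice. Levels are compared within a gene, not between genes, since only transcript ends were counted.

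NK-like cells carried most of the program. In the control library, more UMIs of each of the 10 members fell into the NK-like class than into any other class, and in the AdipoKO library this held for 8, with *Gzmk* and *Gzmm* as exceptions. In the control these 2 rested on few UMIs, with 3 NK-like and 2 T cell-like UMIs of *Gzmk* and 17 and 14 of *Gzmm*. The share of UMIs from NK-like cells was highest for *Gzma* in the control (93.1%) and for *Prf1* in the AdipoKO library (92.3%). It was 92.4% for *Prf1* in the control and 88.8% for *Gzma* in the AdipoKO library. For *Gzmb* it was 89.1% in the control and 73.2% in the AdipoKO library, and for *Ifng* 84.6% and 58.8%. T cell-like cells gave 2.02% of the *Gzmb* UMIs in the control and 11.8% in the AdipoKO library, and dividing cells 1.70% and 9.05%. Of the *Ifng* UMIs, T cell-like cells gave 3.17% and 24.0%.

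**Figure D1:**
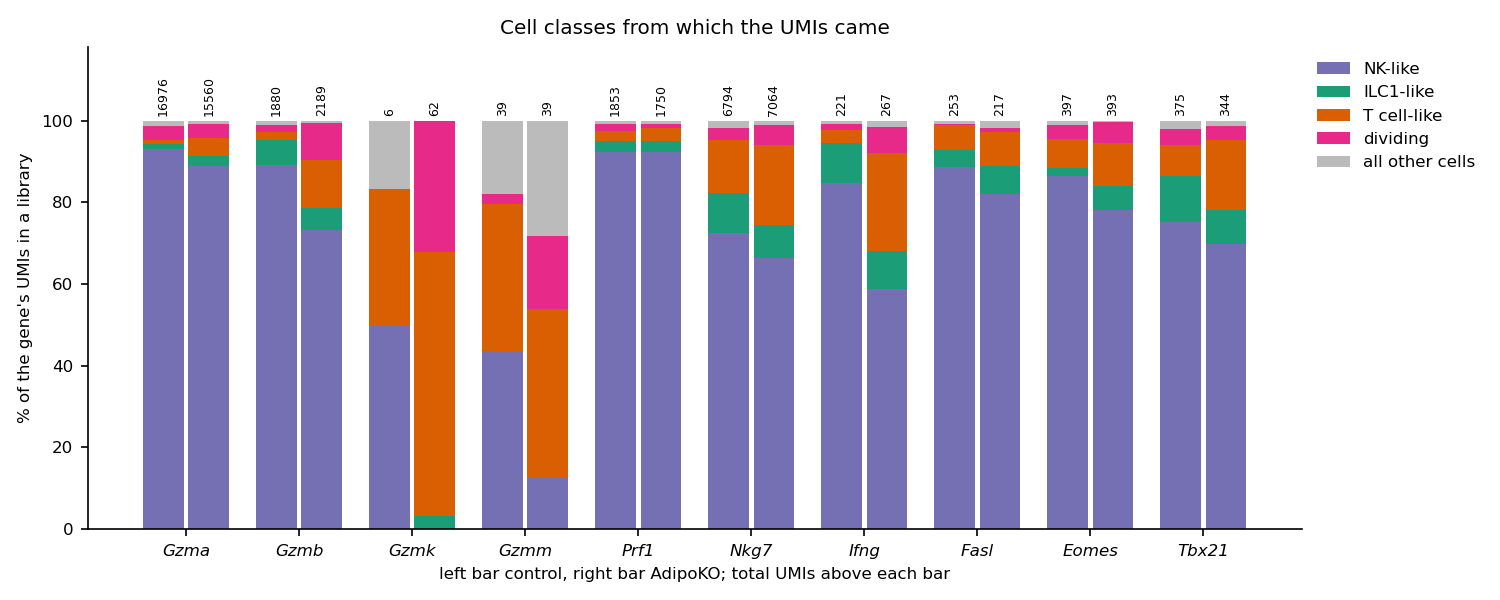
Share of each member's UMIs (%, vertical axis) that came from NK-like, ILC1-like, T cell-like, dividing and all other cells, with the control library on the left and the AdipoKO library on the right of each pair and the total UMIs above each bar. NK-like cells form the largest part of every bar except those of *Gzmk* and *Gzmm* in the AdipoKO library.

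Among the granzymes, *Gzma* reached 11235 CPM (11060 to 11411) in NK-like cells of the control and 10610 CPM (10434 to 10788) in those of the AdipoKO library, a ratio of 0.944 (0.923 to 0.966). All 204 control and 170 of the 172 AdipoKO NK-like cells had a *Gzma* UMI. *Gzmb* was at 1192 (1135 to 1250) and 1230 CPM (1171 to 1292), and 85.8% and 87.8% of NK-like cells had a UMI. For both granzymes the libraries lay within 1.5-fold of each other. *Gzmm* had 17 UMIs in the control and 5 in the AdipoKO NK-like cells, a ratio of 0.317 (0.0916 to 0.896). Of the control UMIs, 5 came from 1 cell, and without the cell with most UMIs in each library the interval reached 1. *Gzmk* had 3 control UMIs and none in AdipoKO NK-like cells.

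The granule partners of the granzymes also lay close together in the libraries. *Prf1* reached 1217 CPM (1160 to 1276) in NK-like cells of the control and 1240 CPM (1180 to 1302) in those of the AdipoKO library, with a UMI in 97.5% and 98.3% of cells. *Nkg7*, whose product sits in the granule membrane and takes part in granule release, was at 3497 (3400 to 3597) and 3596 CPM (3493 to 3700), with a UMI in every NK-like cell. Cells were also thinned to 1000 UMIs each, which puts them at 1 depth and leaves out shallower cells (0 control and 1 AdipoKO NK-like, 38 and 26 T cell-like cells). At this depth 96.6% of control and 96.5% of AdipoKO NK-like cells kept a *Gzma* UMI, 62.3% and 63.2% a *Prf1* UMI and 93.1% and 97.1% an *Nkg7* UMI. For *Gzmb* this share was 52.0% and 56.7%.

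The secreted and surface effectors and the T-box genes were read in the same cells. *Ifng* was at 133 CPM (115 to 153) in NK-like cells of the control and at 120.5 CPM (102 to 141) in those of the AdipoKO library, and 34.3% and 41.3% of cells had a UMI. Its control UMIs were uneven, since 35 of 187 came from a single cell. *Fasl* was at 159 (139 to 182) and 137 CPM (117 to 158), with a UMI in 55.9% and 55.8% of cells. Of the T-box genes, *Eomes* was at 244 (219 to 271) and 236 CPM (210.0 to 263), and *Tbx21* at 201 (178 to 225) and 184 CPM (162 to 209). None of these ratios left the range of 1.5-fold, and each interval held 1 (*Ifng* 0.906, *Fasl* 0.858, *Eomes* 0.966, *Tbx21* 0.919).

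Of the members with at least 100 UMIs, 8 could be read in NK-like cells, and none was past 1.5-fold with an interval clear of 1, where 3.13% of the 3838 genes with that many UMIs were past it upward and 1.02% downward. With at least 20 UMIs, *Gzmm* was added as the only one past it downward, beside 1.33% of 8213 genes downward and 4.35% upward. The median ratio of the 8 members was 0.955, and that of all genes read in NK-like cells 1.05. NK marker genes that were used for naming were as high in both libraries (6332 and 6349 CPM for the list of 8). In the same cells the 6 neutrophil markers were at 272 and 61.4 CPM and the 13 macrophage markers at 34.8 and 123 CPM. The 8 T cell markers were at 241 and 337 CPM (7 of 8 higher), and the 7 markers of group 2 innate lymphoid cells at 66.8 and 103 CPM (3 of 7 higher). *Cd8a* and *Cd8b1* together had 0 control and 19 AdipoKO UMIs. The part of these in the ratios was not tested.

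Within the NK-like class the members varied from cell to cell. Between the 10th and the 90th percentile of cells, *Gzma* ran from 3041 to 20215 CPM in the control and from 2855 to 19944 in the AdipoKO library. *Gzmb* ran from 0 to 2622 in the control and from 0 to 3212 in the AdipoKO library, and the 10% of cells with most *Gzmb* held 43.1% and 36.4% of its UMIs. At a finer clustering (resolution 2.0), a core of 146 control and 122 AdipoKO NK-like cells was at 14063 and 12824 CPM of *Gzma*. A second cluster, led by *Xcl1* and *Ccl4* and holding the ILC1-like cells as well (97 and 87 cells), was at 3793 and 4398 CPM. In this second cluster *Ifng* was at 157 CPM in the control and 103 CPM in the AdipoKO library (0.656, 0.493 to 0.870), and in the core at 81.5 and 119.5 CPM (1.47, 1.07 to 2.01). A single control cell held 35 of the 135 control *Ifng* UMIs of the second cluster, whose ratio without that cell was not computed, and the difference between the clusters was not tested.

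After thinning to 1000 UMIs, the median NK-like cell had a UMI of 4 members in both libraries. The median ILC1-like cell had 1 and the median T cell-like cell none. In control NK-like cells, 72.6% of cells with a *Gzmb* UMI also had a *Prf1* UMI, against 51.0% of those without. In AdipoKO NK-like cells the same shares were 64.9% and 60.8%. *Eomes* and *Tbx21* UMIs met in only 2 control and 1 AdipoKO NK-like cells at this depth.

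**Figure D2:**
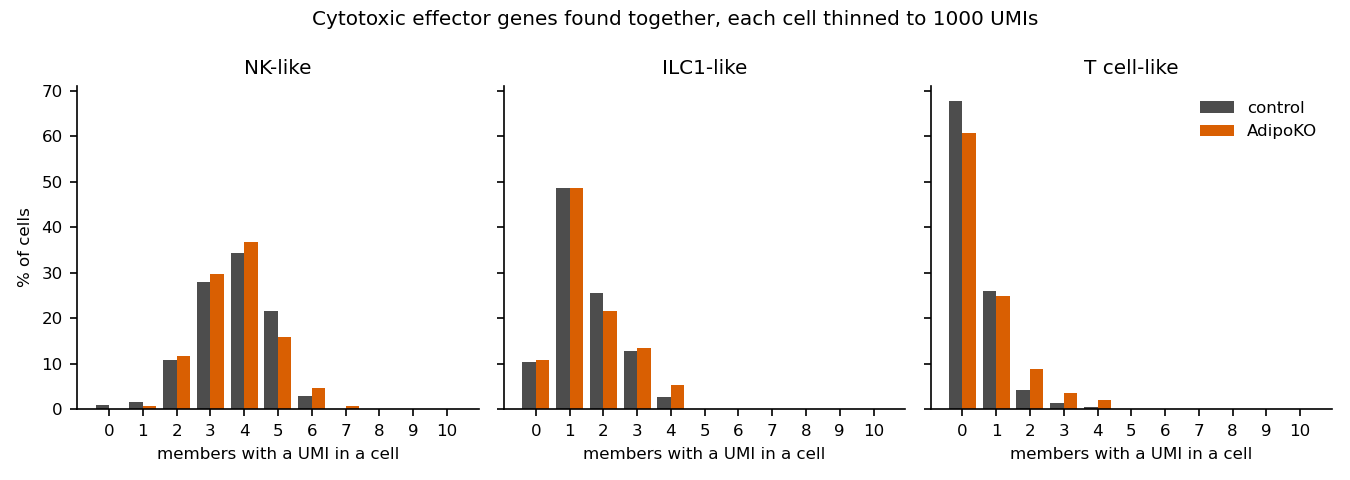
Share of cells (%, vertical axis) by the number of members with a UMI in a cell (horizontal axis) after thinning each cell with at least 1000 UMIs to that number, for NK-like, ILC1-like and T cell-like cells of the control (grey) and AdipoKO (orange) library. NK-like cells centre on 4 members, ILC1-like cells on 1, and 67.7% of the 353 control and 60.6% of the 249 AdipoKO T cell-like cells of this depth had none.

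Set against the other lymphoid classes, and as a description only, since clusters were made from the same cells and *Gzma*, *Prf1* and *Gzmb* were among the leading genes of the NK-like cluster, NK-like levels of *Gzma* were 122-fold (104 to 145) those of T cell-like cells in the control and 22.3-fold (20.7 to 24.2) in the AdipoKO library. The same fold was 52.3 and 6.74 for *Gzmb*, 31.7 and 2.67 for *Ifng*, 6.67 and 3.70 for *Nkg7*, 45.1 and 31.99 for *Prf1*, 17.7 and 10.8 for *Fasl*, 14.5 and 8.15 for *Eomes*, and 11.5 and 4.43 for *Tbx21*. Each of these 8 folds was lower in the AdipoKO library, with counting intervals that overlapped between the libraries for *Prf1*, *Fasl* and *Eomes*. Over ILC1-like cells, the folds were smaller. They were 18.6 in the control and 8.83 in the AdipoKO library for *Gzma*, 9.10 and 8.63 for *Prf1*, 10.9 and 3.35 for *Eomes*, 5.19 and 2.98 for *Fasl* and 3.78 and 3.47 for *Gzmb*. They were 2.17 and 1.58 for *Ifng*, 1.86 and 2.05 for *Nkg7* and 1.71 and 2.08 for *Tbx21*. B cell-like cells had no UMI of *Ifng*, *Fasl* or *Eomes* in either library. Against 3 UMIs as the floor, NK-like *Eomes* was at least 46.6-fold higher in the control and at least 18.9-fold higher in the AdipoKO library.

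**Figure D3:**
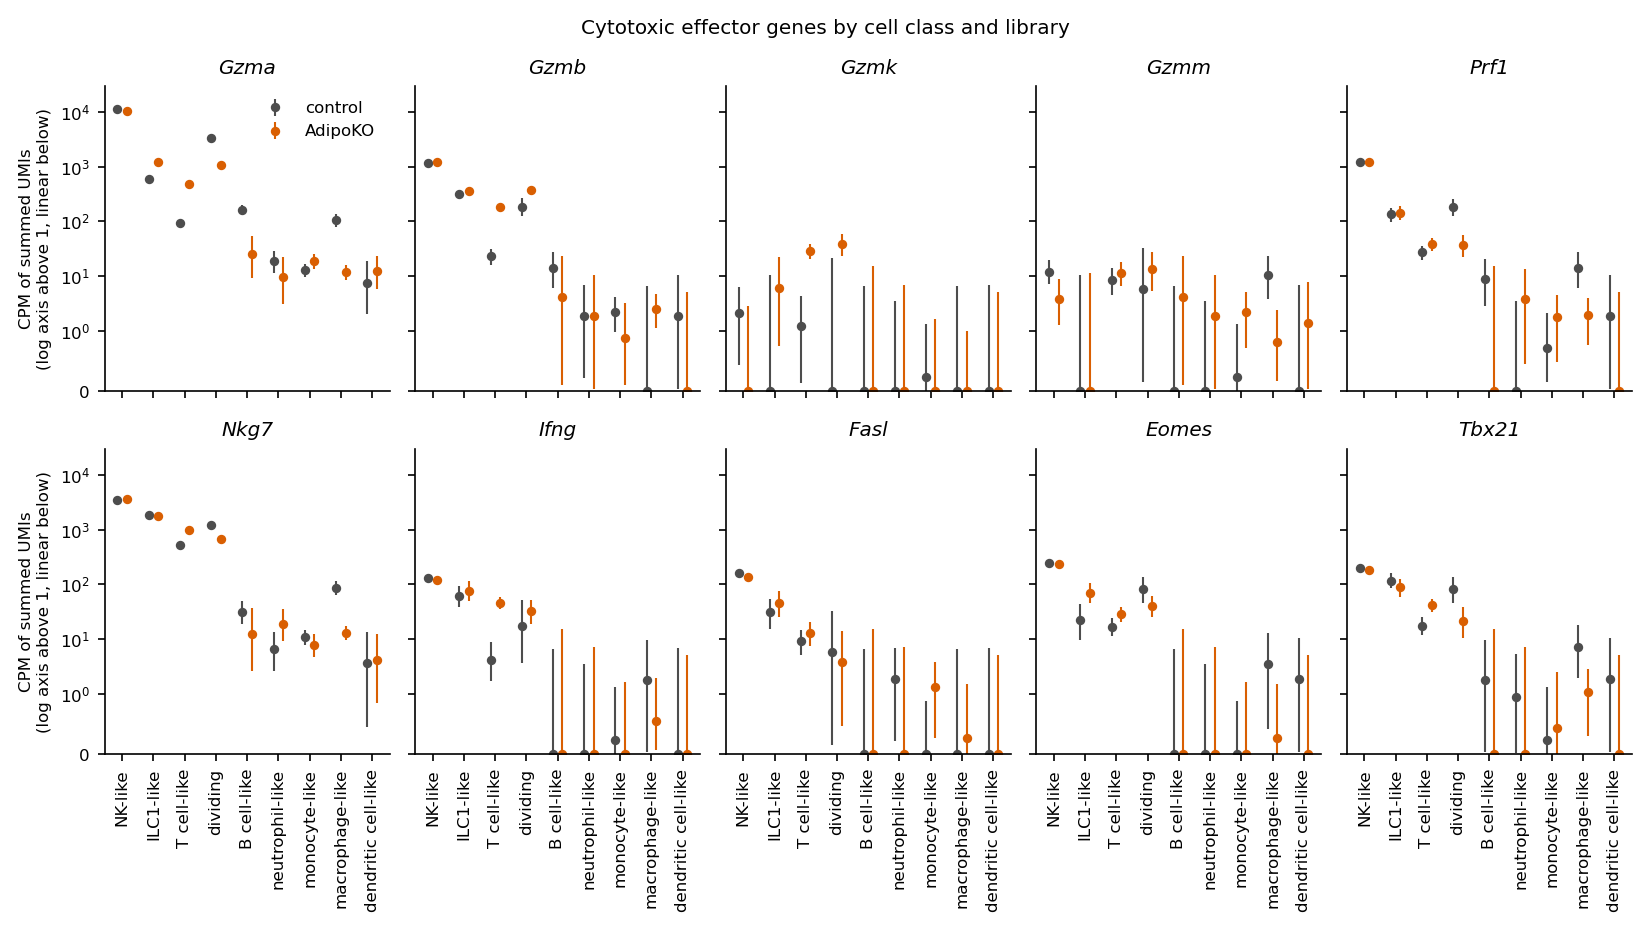
CPM of summed UMIs (vertical axis, logarithmic above 1 and linear below) of each member in 9 cell classes of the control (grey) and AdipoKO (orange) library, with exact Poisson intervals as bars. NK-like cells are highest in both libraries for all members but *Gzmk* and *Gzmm*, and *Gzma* points are above 0 in every class drawn.

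Low *Gzma* counts were found in every class. A *Gzma* UMI was found in 3.44% of control and 6.52% of AdipoKO B cell-like cells. In the control, 86 of the 94 *Gzma* UMIs of this class lay in 1 cell, so that its 164 CPM rests on that cell. The barcodes left out by the filters held members at 132 CPM in the control and 80.0 CPM in the AdipoKO library, against 2678 and 2464 CPM in kept cells. In neutrophil-like, monocyte-like, dendritic cell-like, plasma cell-like and unnamed cells, no member was above 65.8 CPM. Macrophage-like cells had *Gzma* at 105 CPM in the control and at 11.7 CPM in the AdipoKO library (0.111, 0.0735 to 0.168), past 1.5-fold downward beside 4.06% of 4779 genes with at least 100 UMIs and 4.57% of 9003 genes with at least 20 UMIs. Of the 60 control UMIs, 54 lay in 1 cluster of 61 control cells led by *Folr2* and *Lyve1*, where *Nkg7* was at 181 CPM as well. In that cluster *Gzma* was at 244 CPM in the control and at 11.8 CPM in the AdipoKO library.

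T cell-like cells differed between the libraries. *Gzma* reached 91.8 CPM (77.8 to 108) in T cell-like cells of the control and 475 CPM (439.9 to 512) in those of the AdipoKO library. The ratio was 5.18 (4.34 to 6.21), and it ran from 1.61 to 35.6 over 14 other settings of the processing. A UMI was found in 6.14% and 15.3% of cells. Each share was above that of B cell-like cells of the same library, at a greater median depth. *Gzmb* was at 22.8 (16.1 to 31.3) and 183 CPM (161 to 206), a ratio of 8.01 (5.68 to 11.6), with a UMI in 2.30% and 8.36% of cells. *Gzmk*, a granzyme of memory-type CD8 T cells, had 2 control and 40 AdipoKO UMIs, a ratio of 23.5 (6.10 to 201). *Gzmm* had 14 and 16 UMIs and did not move past 1.5-fold with an interval clear of 1 (1.34, 0.614 to 2.97).

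*Prf1* had 45 control and 55 AdipoKO UMIs in T cell-like cells, a ratio of 1.44 (0.951 to 2.18). *Nkg7* was at 524 CPM (490.0 to 560.1) in the control and 973 CPM (922 to 1025) in the AdipoKO library, a ratio of 1.86 (1.70 to 2.02), with a UMI in 47.1% and 57.8% of cells. *Ifng* had 7 control and 64 AdipoKO UMIs (4.20 and 45.1 CPM), a ratio of 10.7 (4.93 to 27.8), and the share of cells with a UMI was 1.28% and 9.09%. *Fasl* had 15 and 18 UMIs (1.41, 0.671 to 3.01). *Eomes* had 28 and 41 UMIs (1.72, 1.04 to 2.89), turned to 0.851 after thinning to 1000 UMIs, where 5 of 353 control and 3 of 249 AdipoKO cells kept a UMI, and was past 1.5-fold in 9 of 14 other settings, and *Tbx21* 29 and 59 (2.39, 1.51 to 3.87).

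Of the 10 members, 7 were past 1.5-fold upward with an interval clear of 1 in T cell-like cells and none downward. Of the 4 members with at least 100 UMIs there, 3 (*Gzma*, *Gzmb* and *Nkg7*) were past it upward, beside 12.7% of 3143 genes, and 1.37% of these genes were past it downward. All 10 had at least 20 UMIs, where 11.5% of 8008 genes were past it upward and 1.71% downward, although *Gzmk* and *Ifng* reached 20 UMIs through the AdipoKO library alone. *Gzmb*, with 38 control and 259 AdipoKO UMIs, likewise reached 100 UMIs through the AdipoKO library, so the counts of members are a description. The median ratio of all genes read in T cell-like cells was 1.16. Over all cells of a library only *Gzmk* was past 1.5-fold, with 6 control and 62 AdipoKO UMIs (9.82, 4.26 to 27.8), where 12.5% of 9452 genes with at least 100 UMIs were past it upward and 3.47% downward, and of 12080 genes with at least 20 UMIs 14.3% upward and 4.32% downward. *Gzmk* reached 20 UMIs there through the AdipoKO library alone, so that nothing is read from these shares for it. For *Gzma* the ratio over all cells was 0.871, for *Gzmb* 1.11 and for *Nkg7* 0.988.

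**Figure D4:**
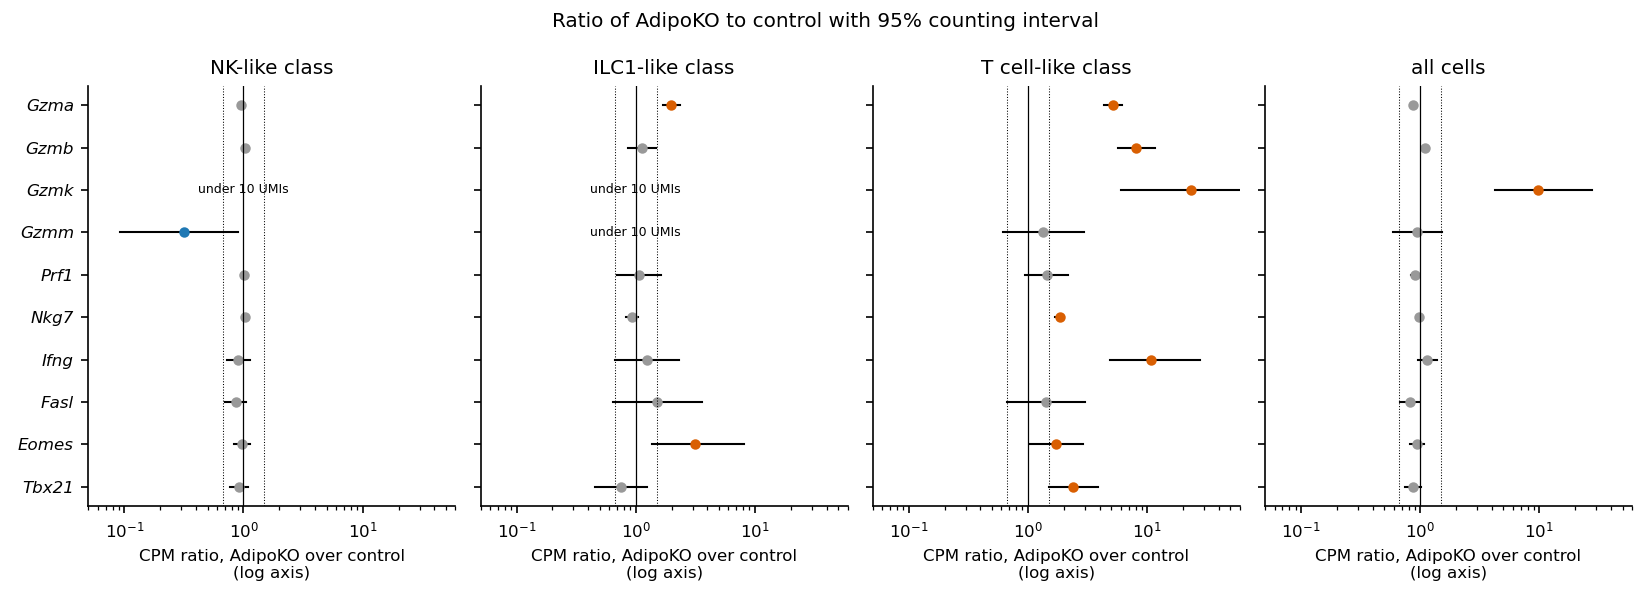
Ratio of CPM in AdipoKO over control (horizontal axis, logarithmic) for each member in NK-like, ILC1-like and T cell-like cells and in all cells, with 95% counting intervals as bars and dotted lines at 1.5-fold. Orange points are past 1.5-fold upward and blue points downward with an interval clear of 1; T cell-like cells have 7 orange points, NK-like cells 1 blue point for *Gzmm*.

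Single T cell-like cells held large parts of the *Gzma* and *Ifng* UMIs, whereas no cell held more than 5.36% of those of *Nkg7* in the AdipoKO library or 8.47% of those of *Tbx21*. One AdipoKO T cell-like cell held 307 of the 674 *Gzma* UMIs, and 1 control cell held 102 of 153. Of the 64 *Ifng* UMIs of the AdipoKO library, 33 lay in a single cell without a UMI of *Cd4*, *Cd8a* or *Cd8b1*. At least 5 UMIs of *Gzmb* were found in 2 control and 11 AdipoKO cells, and at least 5 of *Gzma* in 3 and 13. Without the cell with most UMIs in each library, a comparison chosen after seeing the data, the same 7 members were past 1.5-fold. The share of all genes past it was not computed for this comparison. *Gzma* was then at 30.7 and 262 CPM (8.54, 6.36 to 11.7), *Gzmb* at 12.0 and 151 CPM (12.5, 7.90 to 20.9) and *Ifng* at 2.41 and 22.1 CPM (9.16, 3.24 to 35.7).

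The makeup of the class moved with these values. T cell-like cells formed a cluster led by *Dapl1*, *Lef1* and *Ccr7* (200 control and 88 AdipoKO cells), one led by *Lef1* and *Cd8b1* (72 and 47) and one led by *Cxcr6* and *Ly6a* (119 and 140). *Lef1*, *Ccr7* and *Dapl1* are genes of naive T cells, and the list of 5 naive genes summed to 1641 CPM in T cell-like cells of the control and to 1236 CPM in those of the AdipoKO library. The 2 CD8 genes, *Cd8a* and *Cd8b1*, summed to 645 CPM in the control and to 951 CPM in the AdipoKO library. All 38 control and 259 AdipoKO *Gzmb* UMIs lay in the *Cxcr6* cluster. Within that cluster *Gzma* was at 318 and 970.3 CPM (3.05, 2.54 to 3.70), *Gzmb* at 88.1 and 398 CPM (4.51, 3.202 to 6.52) and *Nkg7* at 897 and 1564 CPM (1.74, 1.55 to 1.97). *Gzmk* had 2 and 39 UMIs there (12.9, 3.34 to 110.4) and *Ifng* 7 and 61 (5.77, 2.64 to 14.96). *Tbx21* (1.23, 0.753 to 2.04) and *Eomes* (0.915, 0.504 to 1.69) had intervals that held 1. Neither T-box gene was past 1.5-fold within this cluster, and *Eomes* stood on the other side of 1. In the *Lef1* and *Cd8b1* cluster *Eomes* had 1 control and 12 AdipoKO UMIs and *Tbx21* 1 and 8.

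**Figure D5:**
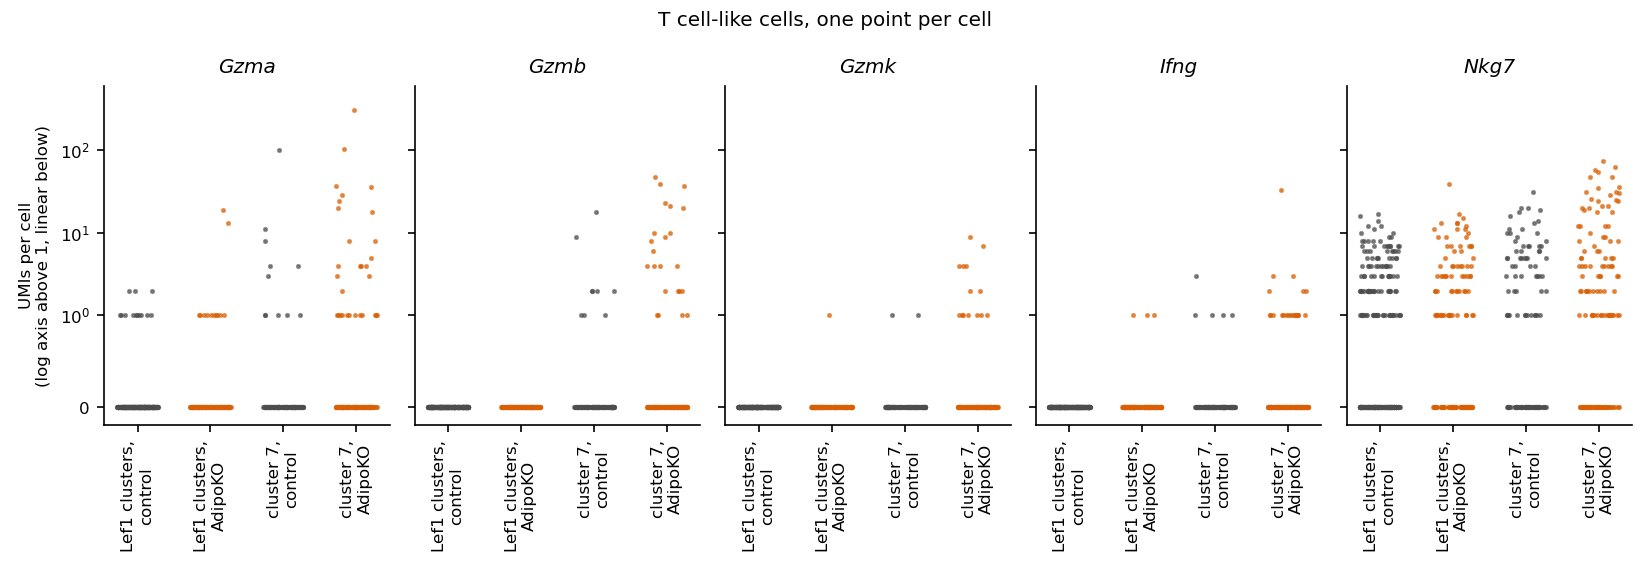
UMIs per cell (vertical axis, logarithmic above 1 and linear below) of *Gzma*, *Gzmb*, *Gzmk*, *Ifng* and *Nkg7* in each T cell-like cell, with the clusters led by *Lef1* and the cluster led by *Cxcr6* (cluster 7) apart and 1 point per cell. *Gzmb* points above 0 lie only in the *Cxcr6* cluster, and more of its cells are high in the AdipoKO library (orange) than in the control (grey).

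CD8 T cells, taken as T cell-like cells with a UMI of *Cd8a* or *Cd8b1* and none of *Cd4*, numbered 153 in the control and 111 in the AdipoKO library. Those in the *Cxcr6* cluster numbered 21 and 36, with a median of 6059 and 6696.5 UMIs. In these cells *Gzma* was at 821 and 2065 CPM (2.52, 2.06 to 3.10), and 4 of 21 control and 16 of 36 AdipoKO cells had a UMI. In the control 102 of the 115 UMIs came from 1 cell. *Gzmb* was at 228 and 819 CPM (3.59, 2.47 to 5.36), with a UMI in 5 and 17 cells. *Gzmk* had 2 and 38 UMIs, in 2 and 13 cells, and *Nkg7* was at 1434 and 2613 CPM (1.82, 1.56 to 2.14). *Prf1* (1.70, 0.825 to 3.85), *Ifng* (1.58, 0.488 to 6.65), *Tbx21* (1.26, 0.627 to 2.69), *Fasl* (0.973, 0.393 to 2.63) and *Eomes* (0.851, 0.400 to 1.90) had intervals that held 1. CD8 T cells of the *Lef1* clusters had no *Gzmb* UMI in either library, and *Nkg7* was at 581 and 561 CPM in the one and at 587 and 597 CPM in the other.

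CD4 T cells (60 control and 42 AdipoKO cells) held few UMIs of most members. *Nkg7* was at 124 CPM (80.8 to 181) in control and 422 CPM (338 to 520) in AdipoKO CD4 T cells, a ratio of 3.41 (2.18 to 5.50), with a UMI in 7 and 14 cells. Within the *Cxcr6* cluster, *Nkg7* of CD4 T cells was at 702 and 724 CPM (1.03, 0.636 to 1.73). *Gzmb* had 1 and 9 UMIs, all 9 in 1 cell. The T cell-like class also held 48 control and 37 AdipoKO cells without a *Cd3d*, *Cd3e* or *Cd3g* UMI, and a cluster like group 2 innate lymphoid cells at the finer clustering (35 and 27 cells), which had no *Gzmb*, *Prf1* or *Ifng* UMI. In T cell-like cells with a UMI of *Cd3d*, *Cd3e* or *Cd3g* and none of *Ncr1*, *Klrb1c* or *Klre1*, genes of NK cells, the ratio was 16.7 (10.6 to 27.7) for *Gzma* and 19.2 (10.7 to 37.7) for *Gzmb*, again a comparison chosen after seeing the data. NK marker genes in T cell-like cells were at 138 CPM in the control and 126 CPM in the AdipoKO library, all 8 of them with a UMI in both.

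Markers of other leukocytes moved with the library in T cell-like cells. The 6 neutrophil markers were at 375 CPM in the control and 79.7 CPM in the AdipoKO library, and the 13 macrophage markers at 30.6 and 145 CPM (12 of 13 higher). The 10 monocyte markers were at 419.8 and 861 CPM (7 of 10 higher). This list holds *Ly6c2* and *Ccr2*, and it was also at 1133 CPM in control NK-like cells. In control ILC1-like cells it was at 1466 CPM, although 7 of its 10 genes had no UMI there. Markers of dividing cells were at 16.8 and 64.1 CPM, and the 7 markers of group 2 innate lymphoid cells at 144 and 202 CPM (5 of 7 higher). The 4 markers of mast cells and basophils had no UMI in control and were at 109 CPM in AdipoKO T cell-like cells. Of the 5 adipocyte transcripts, 4 had no UMI in either library. The part of these in the ratios was not tested.

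ILC1-like cells, which share *Tbx21* with NK cells and differ from them in low *Eomes*, were led by *Cd7*, *Cxcr3* and *Xcl1*. The 5 ILC1 markers summed to 493 CPM in the control and 507 CPM in the AdipoKO library, no higher than in T cell-like cells (509 and 555 CPM), where *Il7r* alone gave 438 and 380 CPM. Of these markers, *Itga1* was at 195 and 82.5 CPM in ILC1-like and at 14.99 and 21.1 CPM in T cell-like cells, and the 5 gamma-delta T cell genes were at 192 and 171 CPM in ILC1-like cells. The class was not found (0 cells in each library) at resolution 0.5 or 2.0, at a mitochondrial limit of 2% or without integration. *Gzma* was at 605 CPM (527 to 691) in the control and 1201 CPM (1086 to 1326) in AdipoKO ILC1-like cells (1.99, 1.68 to 2.36), in 8 of 39 and 15 of 37 cells. The 10% of cells with most *Gzma* held 85.7% and 78.1% of its UMIs, with 85 of 217 and 117 of 393 in single cells. *Eomes* had 8 and 23 UMIs (3.15, 1.36 to 8.15). These were the 2 members past 1.5-fold upward, where 8.15% of 871 genes with at least 100 UMIs and 7.28% of 4463 genes with at least 20 UMIs were past it upward, and 3.9% and 2.24% downward. *Eomes* reached 20 UMIs only through the AdipoKO library. In the same cells the 8 T cell markers were at 1162 CPM in the control and at 1889 CPM in the AdipoKO library (7 of 8 higher), the 5 naive T cell genes at 148 and 309 CPM and the 13 macrophage markers at 2.79 and 226 CPM. The 8 NK markers were at 2180 and 2293 CPM. The part of these in the ratios was not tested. *Gzmb* was at 315 and 355 CPM (1.13, 0.861 to 1.47), *Prf1* at 134 and 144 CPM and *Nkg7* at 1876 and 1755 CPM. *Ifng* was at 61.3 and 76.4 CPM, and *Tbx21* at 117 and 88.7 CPM (0.757, 0.455 to 1.24). The finer clustering put these cells and the *Xcl1* part of the NK-like cells into 1 cluster, where *Gzma* was at 1.16 and *Eomes* at 0.979 of the control.

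The small cluster of dividing cells held other cells in the libraries. Cells with an NK marker UMI and no *Cd3d*, *Cd3e* or *Cd3g* UMI numbered 8 in the control and 2 in the AdipoKO library, and cells with at least 2 such T cell UMIs and no NK marker UMI 3 and 13. These 13 AdipoKO cells held 419 *Gzma*, 196 *Gzmb*, 20 *Gzmk* and 17 *Ifng* UMIs, and the 3 control cells none. Of these, 299 *Gzma* and 109 *Gzmb* UMIs were each in 1 cell, so that single cells set much of these sums. Over the whole cluster *Gzmb* was at 187 and 382 CPM (2.04, 1.40 to 3.06), *Gzma* at 3334 and 1068 CPM (0.320, 0.285 to 0.361) and *Prf1* at 181 and 36.6 CPM (0.202, 0.108 to 0.369). Of the AdipoKO UMIs of the cluster, 109 of 198 for *Gzmb* and 299 of 554 for *Gzma* lay in 1 cell each. The *Gzmb* and *Gzma* ratios thus rest on few cells, and they were not computed without these cells. Cells in neither gate were 5 of 16 in the control and 19 of 34 in the AdipoKO library. NK markers were at 1872 and 122 CPM in this cluster, T cell markers at 825 and 1830 CPM and macrophage markers at 807 and 3742 CPM, and their part in the ratios was not tested.

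Among the genes that serve the program, the granule machinery (packing, transport, release and self protection, 15 genes) had 14 with at least 100 UMIs in NK-like cells, none of them past 1.5-fold. In T cell-like cells 1 of 7 was, *Cst7*, an inhibitor of granule cathepsins (46.2 and 73.3 CPM, 1.59). Of the regulators, 1 of 16 was past it upward in NK-like cells, *Tox* (39.1 and 76.7 CPM, 1.96), and 5 of 14 in T cell-like cells. For all genes with at least 100 UMIs the share past it upward was 3.13% in NK-like, 12.7% in T cell-like and 8.15% in ILC1-like cells, and the share downward 1.02%, 1.37% and 3.9%. The 5 genes were the interleukin receptor genes *Il2rb* (115 and 219 CPM, 1.90) and *Il18rap* (1.70), and the transcription factor genes *Id2* (274 and 596 CPM, 2.18), *Zeb2* (3.44) and *Tox* (1.83). Of the other effectors, *Ccl4*, a chemokine, was lower in AdipoKO NK-like cells (2580 and 1685 CPM, 0.653), and the cytokine gene *Ltb* higher (1.78), among 5 genes. The share of NK-like cells with a *Ccl4* UMI was 68.1% in the control and 70.9% in the AdipoKO library. Single cells held 662 of the 3629 control and 382 of the 2196 AdipoKO *Ccl4* UMIs, and the ratio without them was not computed. In T cell-like cells 2 of 3 were higher, the chemokine genes *Ccl5* (1985 and 4351 CPM, 2.19) and *Xcl1* (38.4 and 97.3 CPM, 2.53). A single AdipoKO T cell-like cell held 47 of the 138 *Xcl1* UMIs. The *Cxcr6* cluster held 119 of 391 control and 140 of 275 AdipoKO T cell-like cells, and its part in the T cell-like ratios was not tested. In ILC1-like cells, *Lyst*, a gene of granule transport, was past it downward (184 and 104 CPM, 0.565) among 3 machinery genes. The regulators *Il2rg* (1.71) and *Klf2* (4.15) were past it upward there among 8, and *Xcl1* (1.67) among 3 other effectors. Of the other granzymes, only *Gzmc* and *Gzmd* had UMIs. *Gzmc* had 6 in the control and 85 in the AdipoKO library, of which 63 lay in ILC1-like cells and 33 in a single one of these.

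Genes known to respond to interferon-gamma, and receptors for the products, were also read. In monocyte-like cells 4 of 8 such genes were past 1.5-fold upward, beside 5.16% of 5789 genes with at least 100 UMIs and 6.84% of 9091 genes with at least 20 UMIs. These were *Cxcl10* (38.8 and 149.5 CPM, 3.85), *Ciita* (1.87), *Cd274* (1.82) and *Gbp2* (1.54). The clusters of this class had other shares in each library, with 243 of 767 control and 222 of 486 AdipoKO cells in the cluster led by *Cd300e* and 236 and 105 in that led by *Chil3* and *Vcan*, and their part in these ratios was not tested. In macrophage-like cells 0 of 6 were, beside 12.1% of 4779 genes and 8.22% of 9003 genes at those minimums. Of 5 receptor genes read in monocyte-like cells, 0 were past it in either direction. Of 5 read in macrophage-like cells, with a median ratio of 1.08, 2 were past it upward. *Igf2r*, which encodes a receptor that binds granzyme B, was at 5.25 and 62.8 CPM in macrophage-like cells, from 3 control and 231 AdipoKO UMIs, so that it was read through the AdipoKO library alone (12.0, 4.04 to 58.5), and *Ifngr2* at 57.7 and 97.6 CPM (1.69, 1.18 to 2.49). The macrophage-like clusters differed in share too, as the one led by *Gpnmb* gave 30716 UMIs from 13 control cells and 1176098 UMIs from 90 AdipoKO cells, and their part in these ratios was not tested. In NK-like cells *Gbp4* (73.9 and 115 CPM, 1.56) was past 1.5-fold among 6 interferon-gamma target genes, and none of 4 receptor genes was, beside 3.13% of all genes. In T cell-like cells 1 of 2 receptor genes was, *M6pr* (51.6 and 77.5 CPM, 1.50), beside 12.7% of all genes.

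The genes whose levels ran most like those of a member were found over 31 groups of cluster and library with at least 20 cells, among 9452 genes, with the members themselves kept out of the ranking. These groups share libraries and depth, so the correlations are a description. Among genes that are no members, *Gzma* ran most like *Klre1* (Pearson r 0.93), *Gzmb* and *Ifng* like *Xcl1* (both 0.95), *Prf1* like *Baiap3* (0.96), *Nkg7* like *Sh2d2a* (0.97), *Fasl* like *Tnfrsf9* (0.97), *Eomes* like *Sytl3* (0.95) and *Tbx21* like *Samd3* (0.97). *Gzmk* ran most like *Mns1* (0.78), *Rrm2* (0.75) and *Tyms* (0.73), the last 2 being genes of nucleotide synthesis in dividing cells. The dividing cluster entered these groups through the AdipoKO library alone (34 cells, against 16 in the control). It held 20 of the 62 AdipoKO *Gzmk* UMIs, so these correlations rest on few UMIs. *Gzmm*, with few UMIs, reached 0.70 with *Snap47*. Between members, *Gzmb* and *Ifng* ran closer to each other (r 0.97) than either did to *Xcl1*, and *Gzma* ran closer to *Gzmb* (0.9342) than to *Klre1*.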

How the data were processed

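The authors aligned reads to mm10, assigned barcodes and counted UMIs with Cell Ranger 4.0.0, and deposited raw counts per gene and barcode, without normalization. Seurat is named in the submitters' processing notes without a version. Every column was used, with 1 library per condition. A barcode was taken as a cell if 200 or more genes were detected in it and no more than 10% of its UMIs were mitochondrial. The mitochondrial limit of the study, 2%, would pass 51.4% of control and 37.7% of AdipoKO barcodes, which leaves fewer cells than the study states.

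Libraries were normalized with SCTransform 0.4.2 and integrated by anchors in Seurat 5.3.0 (R 4.3.3) on 1992 features without the members, with 20 components and a resolution of 1.0, which gave 18 clusters. Clusters were named by at least 3 detected markers and a score of at least 1.0, thresholds set after seeing the data. Scrublet (Scanpy 1.11.5, expected rate 0.02) marked 8 cells (0.351%) of the control and 8 (0.397%) of the AdipoKO library, which were kept. CPM, shares and ratios carry exact Poisson, Clopper-Pearson and conditional binomial intervals of 95% (SciPy 1.17.1). The ratio intervals were run on simulated Poisson counts, which checks the computation only. Such counts do not gather in single cells, as UMIs of some members did. A gene counts as past 1.5-fold when its ratio is at least 1.5, or at most its inverse, and the interval excludes 1. The alternative that takes the mean over cells of each cell's CPM has no interval and uses the ratio alone. UMI totals limit the precision, and an interval covers counting error only. *Pnpla2* was at 37.1 and 42.2 CPM in these leukocytes, in which the adipocyte Cre is not expected to act, so it does not check the deletion. The genes named are the members, genes of 6 lists past 1.5-fold, leading genes of clusters and markers. Markers, members and lists were chosen with earlier results of these data known. Alternatives varied the filters, clustering, gates, depth and denominator. In monocyte-like and macrophage-like cells, of the lists only receptors and interferon-gamma targets are given, and the latter are not reported here for T cell-like cells.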

Additional observations from a re-analysis of the deposited data

Results flagged for a closer look

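For 6 of the 9 members with UMIs of both libraries in both classes, AdipoKO over control stood above 1 in T cell-like and below 1 in NK-like cells, and the difference between the classes was not tested. The ratio was 5.18 in T cell-like against 0.944 in NK-like cells for *Gzma*, 10.7 against 0.906 for *Ifng* and 2.39 against 0.919 for *Tbx21*. It was 1.72 (0.851 after thinning to 1000 UMIs, from 3 AdipoKO and 5 control cells with a UMI) against 0.966 for *Eomes*, 1.41 against 0.858 for *Fasl* and 1.34 against 0.317 for *Gzmm*. *Gzmk*, the member left out of this count, was at 23.5 in T cell-like cells and had 3 control and 0 AdipoKO UMIs in NK-like cells. Of the NK-like ratios, those of *Ifng*, *Tbx21*, *Eomes* and *Fasl* had counting intervals that held 1, as had the T cell-like ratios of *Fasl* and *Gzmm*. Within the *Cxcr6* cluster of T cell-like cells, *Tbx21* and *Eomes* were not past 1.5-fold, and their intervals held 1.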

How the results depend on the processing

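With 1 library per condition, no alternative gives an error between mice, and no paired analysis was possible because the libraries share only replicate number 1. Over 14 other settings, *Gzma* (1.61 to 35.6), *Gzmb* (3.27 to 21.0) and *Nkg7* (1.52 to 3.61) stayed past 1.5-fold upward in T cell-like cells in all 14, and *Gzmk* (16.5 to 51.7) and *Ifng* (4.25 to 23.6) in all 13 that gave a ratio. *Tbx21* (1.54 to 3.38) did so in 13, *Eomes* in 9 and *Prf1* in 6. Of the 14 settings, 1 (the mean over cells of each cell's CPM) has no interval and was called on the ratio alone. *Eomes* turned to 0.851 after thinning to 1000 UMIs (5 control and 3 AdipoKO cells with a UMI) and to 0.915 in the T cell-like cluster without *Lef1*. *Tbx21* was not past 1.5-fold in that cluster either, and its interval held 1. The cause of these changes was not tested. The number of members past 1.5-fold upward in T cell-like cells ran from 5 to 9, and was 3 in the clusters with *Lef1* alone, an alternative chosen after seeing the data. The share of all genes past it was computed under the main setting only. Counts of members in the alternatives thus have no such share beside them, and nothing is read from them about the members as a set. In NK-like cells 1 member (*Eomes*, 1.51) was past it upward at a mitochondrial limit of 2%. Downward, where the main count was 1, there were 0 after thinning and without the cell with most UMIs. For the mean over cells of each cell's CPM there were 2 by the ratio alone, *Gzmk*, with 0 AdipoKO UMIs, and *Gzmm*. NK-like ratios stayed between 0.887 and 1.04 for *Gzma*, 0.990 and 1.25 for *Gzmb*, 0.9399 and 1.12 for *Prf1*, and 1.02 and 1.17 for *Nkg7*. Ratios of members not past 1.5-fold crossed 1 in some settings, as T cell-like *Fasl* (0.473 to 2.82), *Prf1* (0.924 to 2.82) and *Gzmm* (0.963 to 2.47) and NK-like *Eomes*, above 1 in 5 of 14. The number of members with most UMIs in the NK-like class ran from 8 to 10 in the control and was 8 in the AdipoKO library in all 14. Depth limits *Gzmk* most, with 6 control and 62 AdipoKO UMIs, and *Gzmm*, with 39 in each library.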
